A study of Mus musculus with 6 samples.

Results

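The 10 genes described here encode enzymes that start or extend sugar chains on serine and threonine residues, the O-linked glycans. They are the GalNAc transferases Galnt1, Galnt2, Galnt3, Galnt6, Galnt7, Galnt10 and Galnt11, the core 1 synthase C1galt1 with its chaperone C1galt1c1, and B3galtl, a glucosyltransferase that acts on O-linked fucose. The genes were chosen from 23412 genes in the deposited table by role, and this group of enzymes was selected on the higher values of Galnt6 and B3galtl in HN mESCs, so every comparison of R1 with HN for these 10 genes is given as a description, with no p-value for any of them. The libraries came from undifferentiated mouse embryonic stem cells (mESCs) of 129Sv background, 3 from the wild type parental line R1 and 3 from the Htt-/- line HN, in which the promoter and exon 1 of Htt were deleted on both alleles. Both lines were grown without feeders on gelatin in serum medium with LIF and inhibitors of FGF receptor, MEK and GSK3. Replicates of the same number share a collection date, and each line is a single cell line, so that the loss of Htt and other differences between the lines cannot be told apart.

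Mucin-type O-glycosylation begins in the Golgi, where a family of GalNAc transferases moves GalNAc from UDP-GalNAc onto proteins. Family members differ in the peptides they prefer, and some act best on proteins that already carry GalNAc. C1galt1 then adds galactose to form the core 1 structure, and it needs C1galt1c1 (Cosmc) to fold. B3galtl, now named B3glct, belongs to another pathway: it adds glucose to the O-linked fucose that Pofut2 places on thrombospondin type 1 repeats.

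The windows upstream of the annotated starts of Galnt6 and B3galtl are shown because these genes were the ones that differed most between the lines. RefSeq lists 2 starts for Galnt6, 8899 bases apart on the minus strand of chromosome 15 in GRCm38.p6, and the deposited counts per gene do not separate them. The 250 bases before each start were searched on both strands for a GC box (GGGCGG) and for GCATGCGC, the inner part of the NRF1 motif, which was chosen after the sequence was seen. Capitals mark these matches, which overlap one another in the second window.
Galnt6, start 1 (chr15:100729377-100729626, minus strand): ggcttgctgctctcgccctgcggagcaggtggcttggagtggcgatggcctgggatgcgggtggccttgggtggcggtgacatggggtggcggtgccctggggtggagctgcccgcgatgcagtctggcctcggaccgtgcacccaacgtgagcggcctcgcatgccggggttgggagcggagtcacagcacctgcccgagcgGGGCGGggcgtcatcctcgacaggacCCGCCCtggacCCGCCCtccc
Galnt6, start 2 (chr15:100720478-100720727, minus strand): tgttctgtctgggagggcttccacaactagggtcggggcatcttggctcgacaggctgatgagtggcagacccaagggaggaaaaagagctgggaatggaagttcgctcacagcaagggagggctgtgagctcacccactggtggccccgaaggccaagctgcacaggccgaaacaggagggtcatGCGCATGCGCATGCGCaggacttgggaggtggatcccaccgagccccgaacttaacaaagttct
B3galtl (chr5:149677980-149678229, plus strand): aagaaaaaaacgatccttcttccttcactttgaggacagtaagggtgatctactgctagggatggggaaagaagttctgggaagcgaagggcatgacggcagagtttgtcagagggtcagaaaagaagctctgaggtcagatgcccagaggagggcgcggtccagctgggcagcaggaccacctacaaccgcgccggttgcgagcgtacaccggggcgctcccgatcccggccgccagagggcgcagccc

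The first Galnt6 window held 3 GC boxes and 22 CpG sites, and the second held 0 GC boxes and 10 CpG sites. Among other members, the windows of Galnt3 and C1galt1 held 3 and 5 GC boxes, with 34 and 44 CpG sites. Galnt7 and the first Galnt11 window held 2 GC boxes each, and Galnt10 and the second Galnt11 window held 0. The windows of Galnt7, Galnt10 and Galnt11 held 4 to 20 CpG sites. GCATGCGC was found only in the second Galnt6 window among the windows of the members examined, with 4 overlapping matches. Of 32851 RefSeq windows of the same length, 32.7% held a GC box and 2.26% held GCATGCGC. The B3galtl window held neither motif and 16 CpG sites, where the median of all windows was 6. A CRE (TGACGTCA, 1.55% of all windows) was found in a Galnt11 window, and no member window held an E-box (CACGTG, 6.02% of all windows). The CCAAT motif (33.8% of all windows) was also absent from these windows. The letters TATAAA (12.4% of all windows) were likewise not found in them. The windows covered 7 of the 10 genes (Galnt3, Galnt6, Galnt7, Galnt10, Galnt11, C1galt1 and B3galtl). Galnt6 and B3galtl thus shared none of the motifs searched, and a match in letters is not a bound site.

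The values are normalized counts, that is, reads on the exons of a gene divided by the size factor of the library. The libraries held between 1640391 (R1 replicate 3) and 3866717 (HN replicate 2) reads on genes. Replicate 3 of each line had reads on the most genes (20675 in R1 and 20542 in HN). Yet R1 replicate 3 was the shallowest of all libraries, and HN replicate 3 was not the deepest of its line. Htt had 230, 257 and 199 in R1 (replicates 1, 2 and 3) against 18.3, 58.1 and 54.2 in HN, so the lines were separated as labelled (log2 fold change -2.52, adjusted p = 0.0141 by limma, and 0.110 when R1 replicate 1 was left out). Of the fixed marker list of mESCs all 10 genes were detected, and their summed normalized count lay between 15665 and 22533 in R1 and between 17908 and 24464 in HN. The summed markers of other cell types were far lower, at most 232 in any library for fibroblast feeders, primitive endoderm, neural progenitors, trophoblast or mesoderm. The neural sum was 59.2 to 212 in R1 and 162 to 205 in HN, the mesoderm sum 19.2 to 71.4 and 66.9 to 104, and the fibroblast sum 42.9 to 129 and 20.6 to 84.5, with Dcn never above 5. No marker was called without the block, and with it Olig2 and T were called higher and Thy1 lower in HN. The part of other cell types in the values below was not tested. In bulk RNA, more cells with a transcript and more transcript per cell cannot be told apart.

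Galnt6 showed the largest difference between the lines among the 10 enzymes. It encodes a GalNAc transferase that is closely related to Galnt3 and is known from breast cancer, and it lies on chromosome 15 from 100691813 to 100729376 (GRCm38, minus strand). Its normalized count was 40.5, 29.6 and 29.7 in R1 (replicates 1, 2 and 3) against 251, 373 and 125 in HN replicates 1, 2 and 3. The lowest HN library thus lay above the highest R1 library, and the means were 33.2 ± 6.25 for R1 and 249 ± 124 for HN (SD, n = 3), a ratio of 7.5. The log2 fold change, on the scale of log2(normalized count + 1), was 2.75 (standard error 0.35). Within the same-date pairs the difference of HN from R1 was 2.60, 3.61 and 2.03, so its size was not the same on each date.

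The HN libraries disagreed on the level of Galnt6 by more than counting error. HN replicate 2 had 526 reads, for which the exact Poisson 95% interval on the normalized scale runs from 342 to 406. HN replicate 3 had 115 reads, with an interval from 103 to 150. These intervals cover counting error only, and they do not meet. The SD of log2(normalized count + 1) over the HN libraries was 0.80, against a median of 0.24 over the 2122 tested genes whose HN mean lay within 1.5-fold of that of Galnt6. Of these genes 0.566% had an SD as large, whereas in R1 the SD of Galnt6 was 0.25 and 73.7% of genes of like level had an SD as large. The HN values of Galnt6 helped to choose the group, so these shares, and the like share for B3galtl below, are a description only. In the GENCODE M21 annotation, 7.86% of the 50-base stretches of Galnt6 are shared with the antisense gene Galnt6os, and reads from the antisense strand cannot be told apart from those of Galnt6 in a library kit that does not mark strand.

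**Figure D1:**
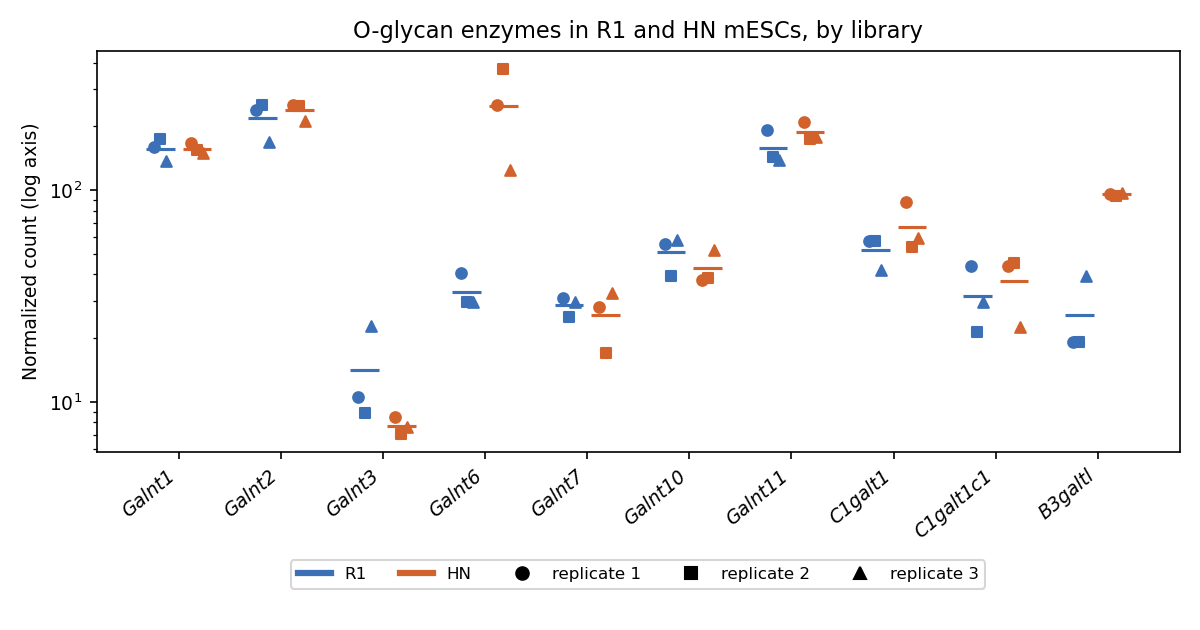
Normalized count (log axis) of the 10 enzymes in each library, with R1 in blue and HN in orange, the replicate number as the marker shape and the mean of each line as a bar. Galnt6 and B3galtl are the genes whose HN libraries all lie above all R1 libraries, at 125 to 373 and 93.6 to 96.4.

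B3galtl, on chromosome 5 from 149678230 to 149762599 (plus strand), had the next largest difference. Its human counterpart is mutated in Peters plus syndrome, a disorder of eye and skeletal development. Its normalized count was 19.2, 19.2 and 39.1 in R1 (replicates 1, 2 and 3) against 96.1, 93.6 and 96.4 in HN. The HN libraries were nearly equal to each other and all lay above the R1 libraries, of which replicate 3 was the highest. R1 averaged 25.8 ± 11.5 and HN 95.4 ± 1.56 (SD, n = 3), which is a ratio of 3.69. On the log2 scale the difference was 1.92 (standard error 0.31). Pair by pair, HN exceeded R1 by 2.27, 2.22 and 1.28, the smallest value falling on the date on which R1 was highest. In contrast to Galnt6, the SD of log2(normalized count + 1) of B3galtl over the HN libraries was 0.02, and 99.4% of 2727 genes of like level had an SD as large. B3galtl had between 79 and 132 reads in the HN libraries, and the 50-base stretches of its transcripts shared with other genes came to 0%.

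Galnt3, which is best known for protecting the phosphate hormone FGF23 from cleavage, was the enzyme with the lowest count. It had 10.6, 8.88 and 22.9 in R1 (replicates 1, 2 and 3) against 8.52, 7.09 and 7.58 in HN. The lines did not overlap, but the HN and R1 values of replicates 1 and 2 lay close together, and each library had only 7 to 17 reads. The counting interval of R1 replicate 1 (5.10 to 19.6) contained all HN values. The log2 fold change was -0.69 (standard error 0.54), and without both libraries of the third date it was -0.29. The Galnt3 difference thus lay mostly in R1 replicate 3.

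The broadly expressed starting enzymes Galnt1 and Galnt2 were near equal in the lines. Galnt1 had 159, 175 and 137 in R1 against 167, 155 and 149 in HN, with overlap between the lines and a log2 difference of 0.01 (standard error 0.20). Galnt2 had 238, 252 and 168 in R1 against 252, 250 and 213 in HN, with a log2 fold change of 0.13 (standard error 0.21). The lowest Galnt2 library was R1 replicate 3, and the lines overlapped. In GENCODE M21, 88.0% of the 50-base stretches of Galnt2 also belong to the overlapping genes Gm20388 or 1810008B01Rik, for which the table has no line, so the Galnt2 level is uncertain if the authors' annotation held them. Galnt11, which is known to act on the Notch1 receptor, had 193, 144 and 139 in R1 against 210, 175 and 179 in HN. It was higher in HN in all 3 same-date pairs, by 0.13, 0.29 and 0.36 on the log2 scale, although the lines overlapped (log2 fold change 0.26, standard error 0.21).

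Galnt7 and Galnt10 prefer substrates that already carry GalNAc, and neither was separated between the lines. Galnt7 had 30.9, 25.2 and 29.7 in R1 against 28, 17.0 and 32.5 in HN, with a log2 fold change of -0.18 (standard error 0.34). Galnt10 had 55.4, 39.2 and 58.0 in R1 against 37.7, 38.3 and 52.0 in HN, with a log2 fold change of -0.24 (standard error 0.28). The R1 and HN libraries of both genes overlapped, and HN minus R1 for Galnt10 was -0.54, -0.03 and -0.15 by date, below 0 each time and close to 0 on the second.

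The core 1 enzyme and its chaperone did not separate the lines either. C1galt1 had 57.5, 57.7 and 41.8 in R1 against 87.6, 53.9 and 59.6 in HN. HN replicate 1 was the highest library, the others overlapped, and the log2 difference was 0.33 (standard error 0.27). C1galt1c1, a gene on the X chromosome from 38630785 to 38635087, had 43.6, 21.5 and 29.7 in R1 against 43.8, 45.4 and 22.7 in HN. Pair by pair, HN minus R1 was 0.00, 1.05 and -0.37, so it had no common direction (log2 fold change 0.23, standard error 0.37).

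**Figure D2:**
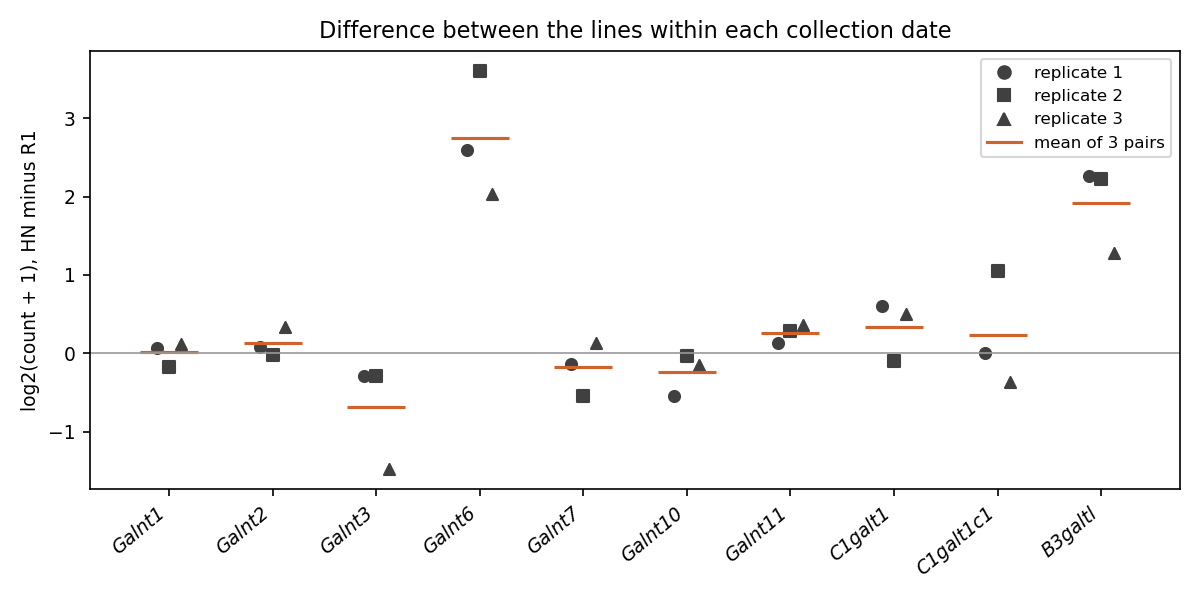
Difference of HN from R1 in log2(normalized count + 1) for each enzyme, with 1 point per same-date pair and a bar at their mean. Galnt6 (2.03 to 3.61) and B3galtl (1.28 to 2.27) lie above 1 in every pair, and the pairs of C1galt1c1 lie on both sides of 0.

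All 10 genes passed the filter on low values, a mean normalized count of at least 5. Genes are described as called when limma's test gave a Benjamini-Hochberg adjusted p-value under 0.05 over all 14276 tested genes and an absolute log2 fold change above 1. The calls of Galnt6 and B3galtl between the lines were fixed by the choice of the group, so their number is given as a description and nothing is read from it. These 2 of the 10 members were called higher in HN and 0 lower, where 0.119% of all tested genes were called higher and 0.245% were called in either direction. With the replicate number as a block the same 2 members were called, against 0.911% of all genes higher and 1.95% in either direction. Complete separation of the 3 HN from the 3 R1 libraries was seen for 3 members (Galnt6, B3galtl and Galnt3), against 10.8% of all tested genes. Of the 10 members 3 were higher in HN in all 3 same-date pairs (Galnt6, B3galtl and Galnt11; 20.3% of all genes), and 2 were lower in all 3 (Galnt3 and Galnt10; 21.1% of all genes). The median log2 fold change was 0.18 over the members and -0.010 over all tested genes. Leaving out HN replicate 1 ended both calls, and leaving out R1 replicate 1 or R1 replicate 2 ended that of B3galtl. Over all 6 fits that leave out 1 library each, the log2 fold change ranged from 2.39 to 3.18 for Galnt6 and from 1.76 to 2.25 for B3galtl.

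Levels of different genes were compared as normalized counts per kb of exon in GENCODE M21. In R1 the order of the GalNAc transferases among the 10 genes was Galnt2 (51.3 ± 10.5 per kb), Galnt1 (28.4 ± 3.37), Galnt11 (23.1 ± 4.35), Galnt6 (8.58 ± 1.62), Galnt10 (8.52 ± 1.70), Galnt7 (5.44 ± 0.574) and Galnt3 (3.23 ± 1.75; SD, n = 3). Galnt6 and Galnt10 did not differ beyond their spread, and their order changed between the R1 libraries. The spreads of Galnt1 and Galnt11 also met, but Galnt1 was the higher in each R1 library (28.7, 31.6 and 24.9 against 28.1, 20.9 and 20.3 per kb). In HN the mean of Galnt6 was 64.4 ± 32.1 per kb, beside 55.6 ± 5.04 for Galnt2. Galnt6 exceeded Galnt2 in HN replicates 1 and 2 (64.7 and 96.3 against 58.8 and 58.3 per kb) and lay below it in HN replicate 3 (32.2 against 49.8). C1galt1c1 had 21.8 ± 7.74 per kb in R1 and 25.7 ± 8.72 in HN, and C1galt1 had 8.59 ± 1.5 and 11 ± 2.96. B3galtl had 5.38 ± 2.39 per kb in R1 and 19.9 ± 0.325 in HN.

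The table held 19 genes of the GalNAc transferase family, the 7 named above and 12 others. Galnt6 made up 6.22%, 4.68% and 4.47% of their summed count per kb in R1 (replicates 1, 2 and 3) against 26%, 37.3% and 15.5% in HN. The share of Galnt2 was 30.7% ± 6.86 in R1 and 23.4% ± 0.748 in HN (SD, n = 3). The summed count per kb of the family was 168 ± 3.94 in R1 and 238 ± 27.0 in HN, and without Galnt6 it was 159 ± 4.09 and 174 ± 11.3. The HN sums without Galnt6 (184, 162 and 175) overlapped the R1 sums (158, 156 and 164), although HN was higher in each same-date pair. The ratio of Galnt6 to Galnt3 per kb was 4.29, 3.77 and 1.46 in R1 and 33.3, 59.4 and 18.6 in HN. These shares follow from the values of Galnt6 that chose the group, and they depend on the exon lengths of one annotation.

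**Figure D3:**
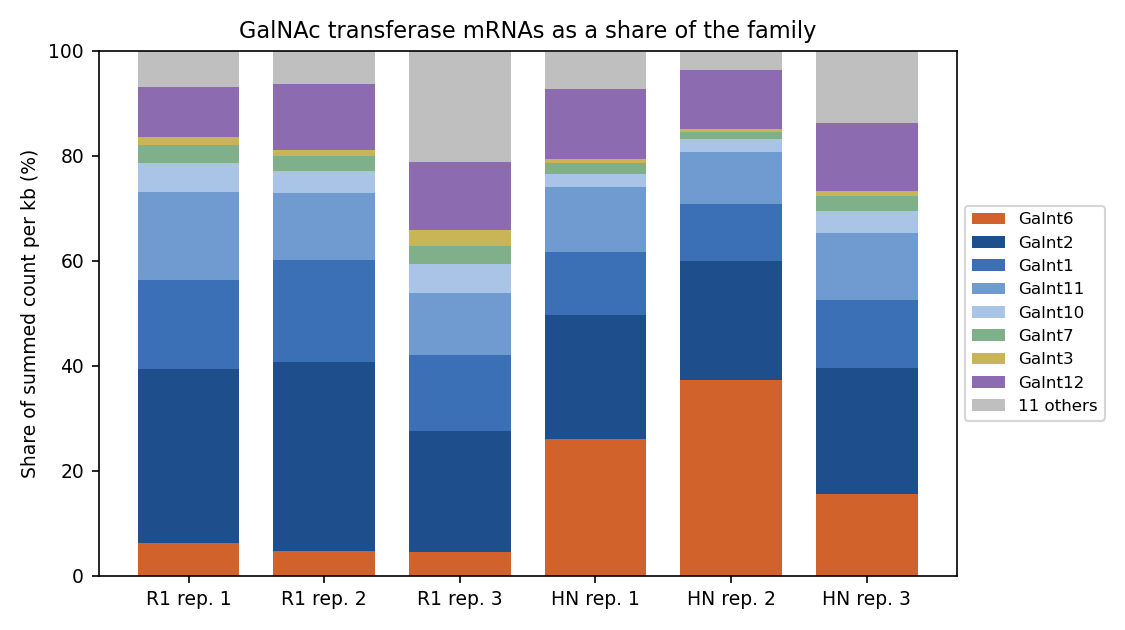
Share of each GalNAc transferase in the summed normalized count per kb of exon of the 19 family members, by library, with the 11 genes other than the labelled ones pooled in grey. Galnt6 takes 4.47% to 6.22% in R1 and 15.5% to 37.3% in HN.

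The collection date is a measure that did not choose the genes, and it was tested in the members with the line in the model. limma's F test over the dates called 2 of the 10 members, Galnt6 and Galnt2, against 46.0% of all tested genes. Of the 6569 genes behind that share, 711 had a mean under 5 on the first 2 dates and passed the filter only through the third. Galnt6 had mean log2 levels of 6.67, 6.74 and 5.96 on the 3 dates (adjusted p = 0.0109 by limma). In HN replicate 3 was the lowest library (125, against 251 and 373 in replicates 1 and 2). In R1 it equalled replicate 2 (29.7 and 29.6), below replicate 1 (40.5). The fall from the second to the third date was thus seen in HN and not in R1. The date call of Galnt6 therefore rests largely on HN values that also helped to choose the group, and it is a description only. Galnt2 had 7.94, 7.98 and 7.57 (adjusted p = 0.0352 by limma, and 0.0718 by edgeR's quasi-likelihood test, which did not call it). Leaving out HN replicate 2 ended both of these calls, and leaving out R1 replicate 2 ended 1 of them. The date effect of B3galtl did not pass (adjusted p = 0.156 by limma), although R1 replicate 3 was higher than the other R1 libraries. Each date holds 2 libraries, and the date, the culture and the library made from it cannot be told apart.

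Of the 9 other family members that were tested, 7 had their highest count on the third date in both lines. For some of these 7 the filter favoured that order, as given below. Of the 12 other GalNAc transferases these 9 passed the filter, and 6 were called for the collection date (Galnt9, Galnt13, Galnt14, Galnt16, Galnt18 and Galnt17, which is listed as Wbscr17). The share called for the date over all tested genes was 46.0%. The means of Galnt9, Galnt13, Galnt14 and Galnt18 over the libraries of the first 2 dates were under 5, so these 4 passed the filter only through the third date, and their calls are no support for a date effect. Galnt16 and Wbscr17 had a mean of at least 5 on the first 2 dates, as did all 10 members. Galnt14 had 3.19, 3.70 and 35.0 in R1 (replicates 1, 2 and 3) against 7.30, 2.84 and 24.9 in HN. Galnt13 had 4.26, 5.92 and 24.3 in R1 against 2.43, 3.54 and 24.9 in HN. Replicate 3 was the highest library of both lines for the 6 called genes and for Galntl6, which was not called. Galntl6 had a mean of 3.01 on the first 2 dates, so it too passed the filter only through the third date. For Galntl6, Galnt9, Galnt13, Galnt14 and Galnt18 the filter favoured a peak on that date, and nothing is read from their order. The same libraries had reads on the most genes, and the part of that feature in these levels was not tested. Between the lines, 0 of the 9 were called, where the share over all tested genes was 0.245%. Galnt12, the most abundant of the 9, had 36.2, 46.6 and 51.2 in R1 against 75.4, 66.6 and 61.7 in HN without overlap (log2 fold change 0.60, standard error 0.25, limma adjusted p = 0.760, or 0.0458 in the blocked fit). Galnt4 had 16 ± 1.13 in R1 and 21.3 ± 4.69 in HN (SD, n = 3; log2 fold change 0.37, adjusted p = 1.0 by limma).

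**Figure D4:**
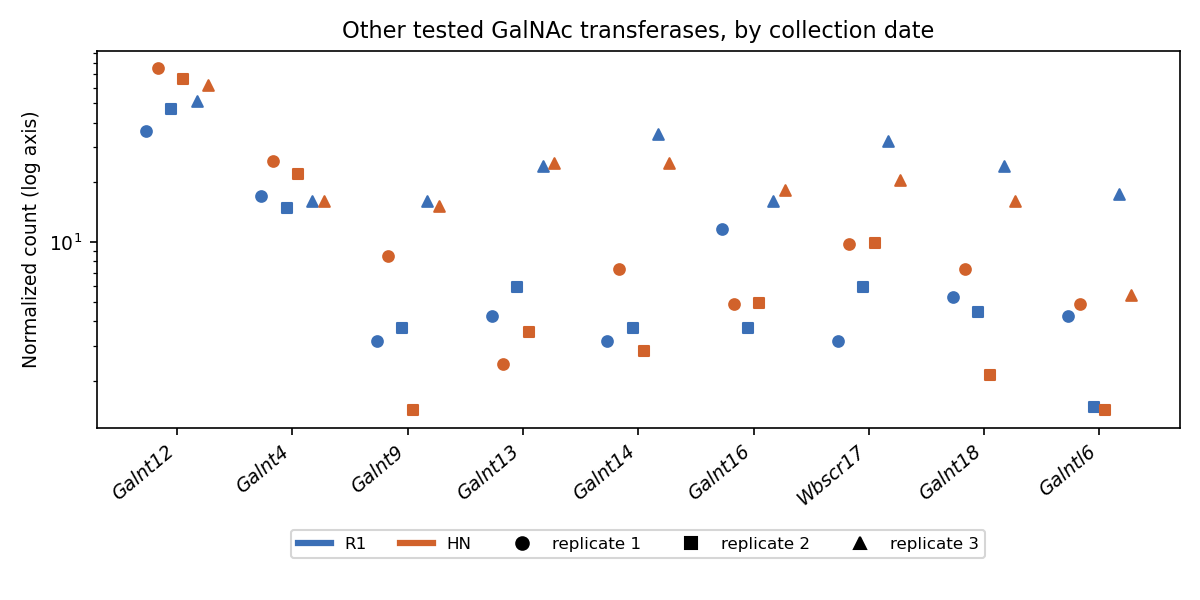
Normalized count (log axis) of the 9 other GalNAc transferases that were tested, with R1 in blue, HN in orange and the replicate number as marker shape. Replicate 3 (triangles) is the highest library of both lines for 7 genes, with 35.0 in R1 and 24.9 in HN for Galnt14. The lines do not overlap for Galnt12, as for 10.8% of all tested genes, and it was called for neither the lines nor the dates. Galnt9, Galnt13, Galnt14, Galnt18 and Galntl6 passed the filter only through the third date, so their order is no support for a date effect. Replicate 3 of each line also had reads on the most genes of all.

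The other genes of the O-glycan pathways, from 7 lists of 135 genes, were tested for a difference between the lines. Of these genes 133 were in the table and 118 were tested. None was called: limma gave 0 higher and 0 lower without the block and 0 with it, and edgeR and DESeq2 on the recovered reads gave 0. Over all tested genes limma called only 0.245% without the block and 1.95% with it. With shares this low, 0 calls among 118 genes does not set these lists apart from other genes. Before adjustment, 7 of the 118 had limma p-values under 0.05, where the share over all tested genes was 5.91%. The median log2 fold change of the 118 genes was 0.05, and the values ran from -0.85 to 0.98, with 61 above 0 and 57 below. With the replicate block and no threshold on the fold change 7 of the 118 had an adjusted p-value under 0.05, against 9.48% of all tested genes.

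Among the genes that work beside B3galtl, Pofut2, which adds the fucose that B3galtl extends, had 138 ± 23.1 in R1 and 168 ± 47.9 in HN (SD, n = 3; log2 fold change 0.25, standard error 0.26, adjusted p = 1.0 by limma). Pofut1, which adds fucose to EGF repeats such as those of Notch, had 85.8 ± 15.5 and 97.2 ± 25.1 (log2 fold change 0.16, adjusted p = 1.0 by limma). All 5 O-fucose genes were tested, with log2 fold changes from -0.52 to 0.28. Of the 50 genes that encode thrombospondin type 1 repeats 42 were tested, with a median of 0.06. The matricellular gene Cyr61 had the highest of these, 0.98 (limma adjusted p = 0.879, or 0.0139 in the blocked fit). Adamts9, a secreted protease, had 45.8, 26.6 and 31.0 in R1 against 53.5, 41.1 and 28.2 in HN, and the netrin receptor gene Unc5b had 69.2 ± 27.7 and 77.8 ± 9.11. Cyr61 had 8.52, 26.6 and 28.3 in R1 and 25.6, 40.4 and 53.1 in HN, and it was higher in HN on each date while the lines overlapped.

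Downstream of the GalNAc transferases, 14 of 16 genes for branching, elongation and sialylation were tested, with a median log2 fold change of -0.10. B4galt1, a galactosyltransferase, had 89.2 ± 12.8 in R1 and 83.8 ± 18.2 in HN, and the sialyltransferase St6galnac6 had 94.7 ± 20.6 and 87.4 ± 15.8 (SD, n = 3; adjusted p = 1.0 for both by limma). Neither gene separated the lines. Of 12 proteins that carry clustered O-GalNAc glycans 10 were tested (median 0.03). Dag1, the dystroglycan gene, had 621 ± 109 in R1 and 656 ± 115 in HN, and the sialomucin gene Cd164 had 325 ± 33.9 and 355 ± 28.4, each with an adjusted p = 1.0 by limma.

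The 23 genes of sugar nucleotide supply and transport, all tested, had a median of -0.02. The most abundant were Galk1 (galactokinase), with 466 ± 65.2 in R1 and 429 ± 10.8 in HN, and Cmas, which activates sialic acid, with 176 ± 24.5 and 174 ± 18.5 (SD, n = 3; adjusted p = 1.0 for both by limma). Fpgt, of fucose salvage, had 127, 134 and 117 in R1 against 86.4, 73.0 and 93.1 in HN without overlap (log2 fold change -0.58, limma adjusted p = 0.645, or 0.010 in the blocked fit). Gnpnat1, of UDP-GlcNAc synthesis, had a log2 fold change of 0.46 (limma adjusted p = 1.0, or 0.0316 in the blocked fit).

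Of the 17 genes for other O-linked sugars 15 were in the table and tested (median 0.06). Ogt, which adds O-GlcNAc in the nucleus and cytosol, had 997 ± 178 in R1 and 1038 ± 92.1 in HN, and Mgea5, which removes it, had 582 ± 17.8 and 585 ± 29.9 (SD, n = 3; adjusted p = 1.0 for both by limma). Both were near equal in the lines. Poglut1, which adds O-glucose to EGF repeats, had 435, 562 and 313 in R1 against 774, 790 and 542 in HN. It was higher in HN on each date, its lines overlapped, and the log2 difference was 0.70 (limma adjusted p = 0.601, or 4.37e-06 in the blocked fit). Eogt, which adds O-GlcNAc to EGF repeats, had 68.1, 52.5 and 47.2 in R1 against 40.2, 29.1 and 23.8 in HN without overlap (log2 fold change -0.85, limma adjusted p = 0.618, or 0.00785 in the blocked fit). Pomgnt1, of the O-mannose pathway, had a log2 fold change of 0.62 (limma adjusted p = 1.0, or 0.00574 in the blocked fit).

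**Figure D5:**
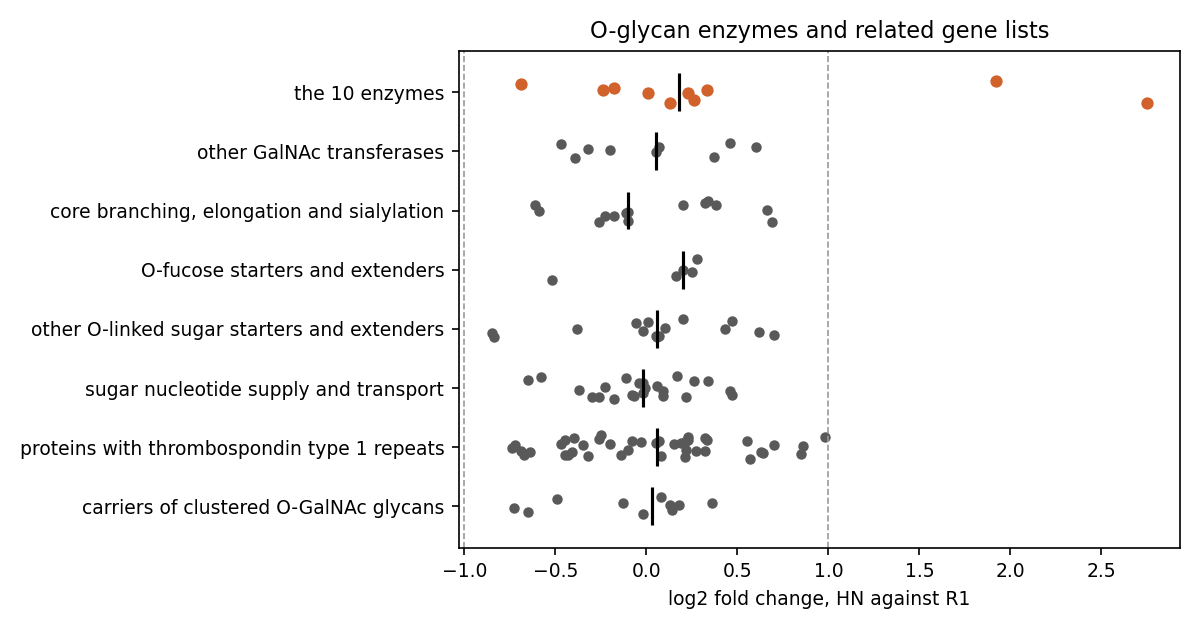
log2 fold change of HN against R1 for the 10 enzymes (orange) and the tested genes of the 7 other lists (grey), 1 point per gene, with list medians as bars and dashed lines at -1 and 1. Galnt6 (2.75) and B3galtl (1.92) lie beyond 1, and the 118 other genes lie between -0.85 and 0.98.

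Neighbouring genes on the chromosome were compared with Galnt6 and B3galtl. On chromosome 15 the nearest tested genes to Galnt6 were Cela1, 3891 bp away, and Slc4a8, 32370 bp away. Cela1 had 18.1, 5.92 and 10.8 in R1 against 13.4, 4.25 and 7.58 in HN (log2 fold change -0.42, adjusted p = 1.0 by limma). Slc4a8 had 40.5, 32.5 and 49.9 in R1 against 52.3, 82.2 and 55.2 in HN, higher in HN without overlap but not called (log2 fold change 0.61, limma adjusted p = 0.870, or 0.0688 in the blocked fit). On chromosome 5 the heat shock gene Hsph1, 41853 bp from B3galtl, had 125, 254 and 131 in R1 against 196, 378 and 213 in HN (log2 fold change 0.64, limma adjusted p = 0.924, or 2.90e-04 in the blocked fit). Rxfp2, 256075 bp away on the other side, had 2.13, 5.18 and 12.1 in R1 against 6.08, 0.709 and 15.2 in HN (log2 fold change -0.13, standard error 0.99). It passed the filter only through the third date, and with so few reads nothing is read from its difference. The log2 fold changes of Cela1, Slc4a8 and Hsph1 were smaller in size than those of Galnt6 and B3galtl. An effect of the chromosome region was not tested.

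The tested genes whose log2 levels followed those of Galnt6 most closely over the 6 libraries were Rfx2 (Pearson r = 0.994), Pik3cd (0.993) and Casc4 (0.990). Their differences between the lines were far smaller, with log2 fold changes of 0.33, 0.80 and 0.51. Rfx2 had 99.0, 93.2 and 93.0 in R1 against 123, 125 and 113 in HN. The genes most like B3galtl were Gm8909 (r = 0.995), Olig1 (0.994) and Nod1 (0.993), with log2 fold changes of 3.39, 2.78 and 3.33. Gm8909 had 0, 0 and 1.35 in R1 (replicates 1, 2 and 3) against 13.4, 13.5 and 11.9 in HN. It passed the filter only through HN, so nothing is read from its correlation or its fold change. Olig1, an oligodendrocyte transcription factor, had 7.45, 5.18 and 20.2 in R1 against 75.4, 71.6 and 63.9 in HN, with R1 replicate 3 the highest R1 library as for B3galtl. These correlations are over 6 libraries that share the same 2 lines and 3 dates, and the genes were taken from the top of 14276.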

How the data were processed

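Per gene and library, the authors deposited a normalized count, a signal in size-factor units. STAR had placed the paired-end reads on mm10/GRCm38, Picard had taken out PCR duplicates, HTSeq had counted exonic reads, and DESeq2 had supplied the normalization. Versions and the gene annotation are not given in the sources used here. Reads were recovered as whole multiples of the value of 1 read (100.0% of values above 0, within 0.01), and gave 1640391 to 3866717 reads per library. Unused columns numbered 0.

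Values were compared as log2(normalized count + 1) with limma 3.58.1 (variance trend) in R 4.3.3, for 14276 genes with a mean of at least 5. The comparison of the lines has no block, and the date was tested in a model with line and replicate number. Same-numbered libraries share a collection date in the labels and deviated together (r = 0.25, 0.69 and 0.77 across genes, which are not independent; R1 replicate 1 had 0.34 with HN replicate 2). A fit with the replicate number as a block is given where it changed a result. An exact two-sided permutation test of 3 against 3 cannot go below 0.1. The replicates are collections of 1 line each on different dates, so p-values measure only the spread between these libraries.

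Alternatives were edgeR 4.0.16 (with and without the block) and DESeq2 1.42.0 on recovered reads, pseudocounts of 0.1 and 10, no filter, a mean of at least 50, median centring and leaving out each library. Leaving out replicate 3 of both lines, and each library in the date test, were added after seeing the data. All tests were run on simulated counts with the same dispersion for every gene. For the comparison of the lines these counts held no date effect, unlike the libraries here, so the check does not cover that feature.

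The members and gene lists were chosen with earlier results of these data known. Named genes were all members, Htt, list genes called or with the 2 highest mean levels per list, the 3 genes most correlated with Galnt6 and with B3galtl, and the nearest tested neighbours. Cyr61, Fpgt, Gnpnat1, Poglut1, Eogt, Pomgnt1, Galnt13 and Galnt14 were chosen after their values were seen. Gene positions, exon lengths and shared stretches come from GENCODE M21 (B3galtl matched as B3glct), and sequences from RefSeq (GRCm38.p6).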

Additional observations from a re-analysis of the deposited data

How the results depend on the processing

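The direction of the Galnt6 and B3galtl differences was the same in the 17 settings, main and alternatives, and all 156 member values under alternatives moved by less than 1 SD between replicates. The members called numbered 2 without a block and with the replicate block, edgeR, DESeq2 and every other setting that kept all libraries or left out replicate 3 of both lines. Leaving out 1 library gave 0 to 2 called members, 9 to 56 called genes in all, and a log2 fold change of Htt from -2.81 to -2.0, which was not called without R1 replicate 1. Genes called in all numbered 35 in the reported fit, 278 with the replicate block, 284 with edgeR and the replicate block and 79 with DESeq2 (47 higher and 32 lower). Median centring called 27 higher and 18 lower against 17 and 18. The 0 calls among the other O-glycan genes were 0 in every setting. For the collection date, 4090 genes were called with a mean of at least 50, where fewer genes were tested, against 6569. Leaving out 1 library gave 3270 to 7661 genes and 0 to 2 members. Of the members, 1 was called for the date by edgeR and 1 with no filter. The cause of the other changes was not tested. Low read numbers limit Galnt3 most, with 7 to 17 reads per library.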
